A study of Mus musculus with 7 samples.

Results

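The set comprised 54 genes of the early secretory pathway, taken by symbol from both RNA tables out of 23583 entries that the tables share, and divided by role into 6 steps. These are the translocon with the signal recognition particle (SRP) and the TRAP complex (12 genes), signal peptidase (5), N-glycosylation (12), the COPII coat (11), the COPI coat (6) and cargo receptors (8). All 54 had an entry and all reached 1 FPKM (fragments normalised by transcript length and by library depth) in at least 1 library. The cells were primary dermal fibroblasts of female FVB/N mice, kept in culture for 8 days and then either left untreated or given thapsigargin for 3 h, and culture time, sex and strain are the same in every group. RNA was sequenced without and with thapsigargin, CEBPB was immunoprecipitated in both states and ATF4 under thapsigargin, from 1 library per group, while the methylation table pools 2 bisulfite libraries made without it. No age, number of animals or pooling of animals is given in the labels.

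Proteins bound for secretion enter the endoplasmic reticulum (ER) through the SEC61 channel, to which SRP brings ribosomes as the signal peptide emerges. Signal peptidase removes that peptide, oligosaccharyltransferase (OST) moves a preassembled glycan from a dolichol carrier onto asparagines, COPII coats carry folded cargo towards the Golgi, and COPI coats return escaped residents and receptors. Thapsigargin blocks the calcium pump of the ER and disturbs folding there, and many genes of the pathway are known targets of the unfolded protein response factors XBP1 and ATF6 in mammalian cells, while ATF4 is the factor of the translational branch.

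The libraries held 53914231 and 78941806 fragments in genes, as implied by the deposited confidence bounds. All 10 fibroblast markers examined were above 1 FPKM in both libraries, with summed levels of 16479 FPKM without and 4283 FPKM with thapsigargin. Macrophage markers were also above 1 FPKM, 6 of 6 in both libraries, with sums of 1020.1 and 1184 FPKM, and the 4 endothelial markers were all under 1. Keratinocyte markers summed to 21.2 and 1.49 FPKM, those of melanocytes and Schwann cells to 41.4 and 5.78, those of muscle and pericytes to 38.6 and 39.6, and those of adipocytes to 15.2 and 6.26. The part of these markers in the values below was not tested. In bulk RNA, fewer cells of a type and less RNA per cell cannot be told apart. With 1 RNA library per condition no test was possible, so a gene was counted as higher or lower when log2(FPKM + 1) differed by 1 or more between the libraries, a scale that understates the change of low genes. Intervals of ratios cover counting error only, at 95%, and none covers variation between cultures.

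Across the set, 1 of 54 members was higher in the treated library and 10 were lower, against 6.02% and 28.2% of the 12207 entries that reached 1 FPKM. The remaining 43 differed by less than 1 on the log2 scale, with 20 members above and 34 below 0 in all. The median log2 change was -0.18 for the members and -0.52 for all expressed entries. It was -0.79 for the 1888 expressed entries whose untreated level lay within a factor of 2 of the members' median. The members summed to 4186 FPKM without and 3358 FPKM with thapsigargin, where all expressed entries summed to 362330 and 257940 FPKM. Members were abundant transcripts, with a median of 61.1 FPKM untreated against 9.91 for all expressed entries, and Sec61g, at 1.76, was the lowest.

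**Figure D1:**
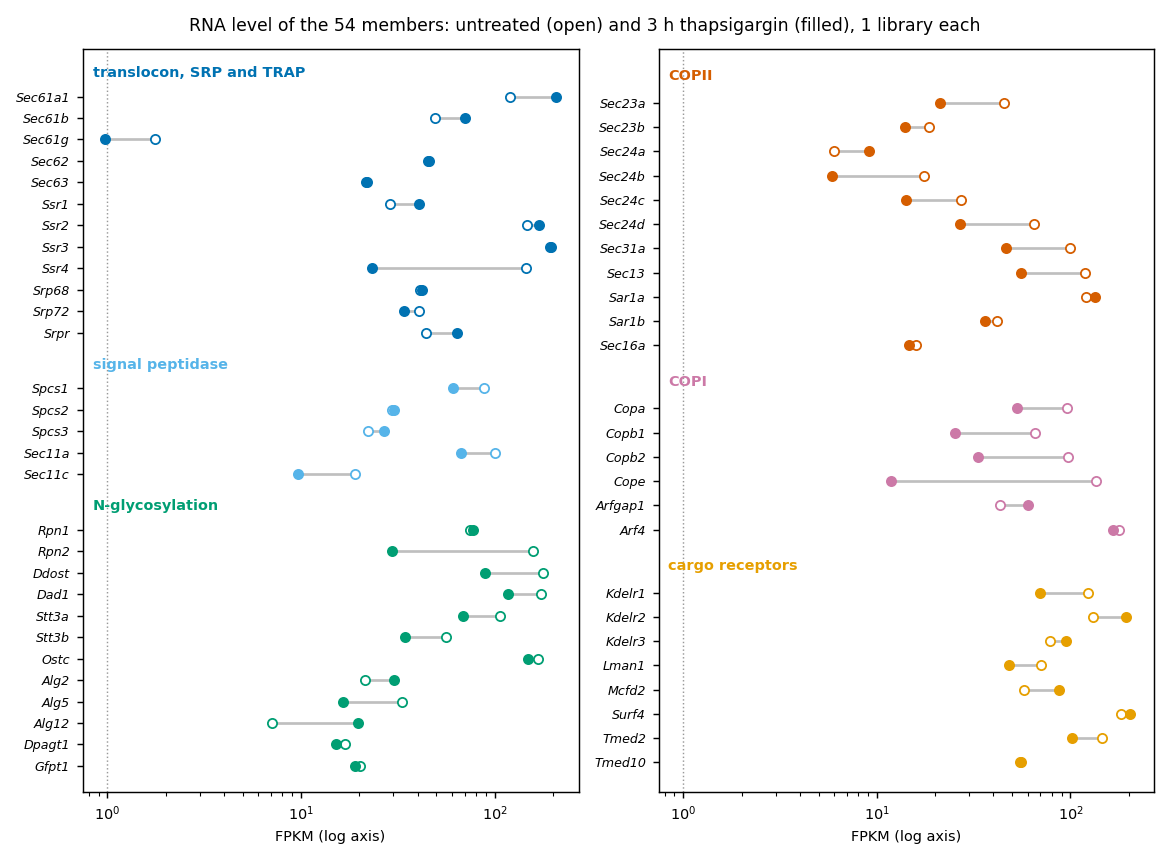
RNA level of each of the 54 members on a log axis of FPKM, grouped by step, with untreated cells as open and thapsigargin-treated cells as filled circles, 1 library each. The longest shifts to the left are those of Cope, Ssr4 and Rpn2, and the longest to the right is that of Alg12.

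The change went with gene structure in the set as it did in the whole table. Over 53 members with an annotated coding transcript, the log2 change and the exon junction density (junctions per kb of transcript) had a Pearson r of -0.54 and a Spearman rho of -0.57. Over 11673 expressed entries they were -0.37 and -0.38, and all points of either correlation share the same pair of libraries. Members with under 3 junctions per kb had a median log2 change of 0.02 against -0.20 for all expressed entries of that class. From 3 to under 5 junctions per kb the medians were -0.15 and -0.54, and at 5 or more they were -0.97 and -0.95. Of the 10 lower members, 9 had 5 or more junctions per kb, the exception being Sec24b with 4.71. These 9 were among 19 members of that class, in which 48.1% of 3420 expressed entries were lower. The cause of this relation was not tested. An adjusted change was therefore computed for each member, in which the median change of genes with a similar junction density is taken off. On that scale 8 members were higher and 3 lower of 53, against 12.5% and 10.5% of 11673 entries, with a median of 0.23. The 8 were Sec61a1, Sec61b, Srp68, Srpr, Alg12, Sec24a, Arfgap1 and Mcfd2, from 1.04 at Mcfd2 to 2.14 at Alg12, and the 3 were Ssr4, Rpn2 and Cope.

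**Figure D2:**
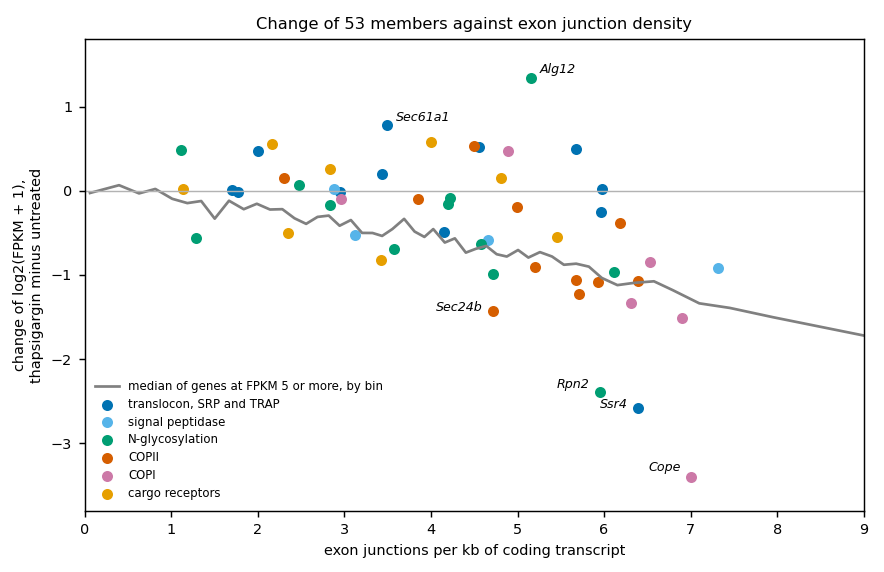
Change of log2(FPKM + 1), thapsigargin minus untreated, against exon junctions per kb of coding transcript for 53 members coloured by step, with the median of all genes at 5 FPKM or more in bins of junction density as a grey line. The line falls with junction density, and Cope, Rpn2 and Ssr4 lie far below it while Alg12 lies far above it.

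The steps differed in where their members stood. The translocon group and the cargo receptors had median log2 changes of 0.02 and 0.09, signal peptidase -0.53, N-glycosylation -0.36, COPII -0.90 and COPI -1.09. After the adjustment for junction density these were 0.69, 0.40, 0.19, 0.14, 0.02 and -0.01 in the order translocon, cargo receptors, signal peptidase, N-glycosylation, COPII, COPI. COPI thus had the lowest median on both scales, but the medians of both coats lay near 0 after the adjustment. The difference between steps was not tested.

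**Figure D3:**
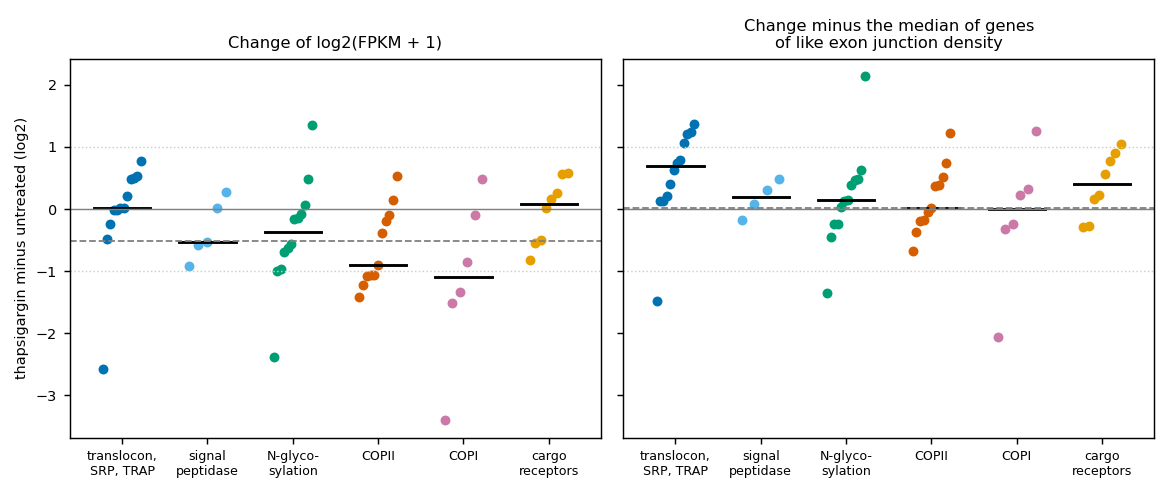
Change of each member by step, thapsigargin minus untreated on the log2 scale, before (left) and after (right) taking off the median change of genes with a similar exon junction density. Black bars are step medians, dashed lines the median of all expressed entries and dotted lines a change of 1. The COPII and COPI medians lie at -0.90 and -1.09 on the left and near 0 on the right.

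At the entry into the ER, no channel subunit passed the threshold and a single TRAP subunit was lower. Sec61a1 (chr6:88453601-88468794 on mm9, as all positions here), which encodes the pore-forming subunit, was measured at 121 FPKM without and 208 FPKM with thapsigargin, a ratio of 1.72 (95% interval 1.7 to 1.75) and a log2 change of 0.78. This was the highest change and the highest treated level of the step. Sec61b, which encodes the beta subunit, went from 49.1 to 70.0 FPKM (log2 change 0.50). As many as 80% of its transcript windows have near-identical copies elsewhere in the genome, so its reads may be shared. Sec61g, the gamma subunit, was at 1.76 and 0.974 FPKM. That is far below the other subunits of the same channel, and 50% of the windows of Sec61g are copied elsewhere. Its FPKM gave a log2 change of -0.48 and the fragments implied by its bounds 0.07, so its direction depends on which deposited value is read.

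None of the genes of targeting passed the threshold. Srpr, the alpha subunit of the SRP receptor, went from 44.0 to 63.7 FPKM (log2 change 0.52), with 62.1% of its windows copied elsewhere. Srp68 and Srp72, a pair of proteins that bind the SRP RNA together, had log2 changes of 0.02 and -0.25. Sec62 and Sec63, which assist the channel in post-translational entry, stood at 45.8 and 45.5 FPKM and at 21.8 and 21.6 FPKM, changes of -0.01 each. Both libraries therefore gave nearly the same level for these auxiliary factors.

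The TRAP complex (translocon-associated protein, which sits beside the channel) has 4 subunits, whose levels differed in their course. Ssr3 was the most abundant transcript of the whole set in untreated cells, at 193 FPKM, and stood at 195 after treatment. Ssr2 was at 148 and 170.4 FPKM and Ssr1 at 28.8 and 40.5 FPKM. Ssr4, encoding the delta subunit on the X chromosome (chrX:71032367-71036167), stood at 145 FPKM untreated and 23.4 treated, a log2 change of -2.58 and the lowest of the step. It was the only TRAP gene below 0, and its change was still -1.48 after the adjustment, at 6.39 junctions per kb. Its bounds and its FPKM did not move in proportion, and the fragments implied by the bounds gave -2.30. Idh3g, a mitochondrial dehydrogenase subunit gene whose start lies 131 bases away on the other strand, was also lower, at 47.6 and 8.86 FPKM.

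Signal peptidase had no member past the threshold. Sec11a, the more abundant of the 2 catalytic subunits, was at 101 FPKM untreated and 67.1 treated, and Sec11c at 19 and 9.62 FPKM. Sec11c had the lowest log2 change of the step, -0.91, and Sec11a stood at -0.58. Of the subunits without catalytic activity, Spcs3 was at 22.2 and 26.9 FPKM, the highest change of the step at 0.27, Spcs2 at 29.7 and 30.1, and Spcs1 at 88.3 and 60.9. Spcs1 overlaps exons of Glt8d1 over 17.5% of its length, and the library kit named in the labels does not mark strand, so reads there cannot be told apart. Spcs3 had no annotated coding transcript and thus no junction density.

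N-glycosylation held 1 lower gene of the transferase and 1 higher gene among the enzymes that build its donor. Of the 7 OST genes measured, 6 were below 0, as were 72.6% of all expressed entries. Their median log2 change was -0.63, while the 5 donor synthesis genes had a median of -0.09. After the adjustment 4 of the 7 OST genes were below 0, 57.1% against 48.8% of 11673 expressed entries. The medians of the OST and donor synthesis genes were then -0.24 and 0.48. The difference was not tested. Rpn2, encoding ribophorin II (chr2:157104834-157152054), stood at 159 FPKM untreated and 29.5 treated, a ratio of 0.186 (95% interval 0.182 to 0.190) and a log2 change of -2.39. Its partner Rpn1, encoding ribophorin I, was at 74.3 and 77.8 FPKM. Rpn2 thus exceeded Rpn1 in untreated cells and stood below it in treated cells, and the adjusted changes were -1.35 for Rpn2 and 0.39 for Rpn1. Ddost, a further structural subunit and the most abundant transcript of the step in untreated cells, was at 178 and 88.8 FPKM, a log2 change of -0.99 just inside the threshold. The catalytic subunit genes had like ratios, 0.643 and 0.611, with Stt3a at 107 and 68.7 FPKM and Stt3b at 56.4 and 34.5 FPKM. Dad1, a small structural subunit, was at 174 and 117 FPKM and Ostc, a subunit of the Stt3a form of the complex, at 168 and 149.7 FPKM.

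Among the donor synthesis genes Alg12 was the single member of the set past the threshold upwards. It encodes the mannosyltransferase that adds a late mannose to the lipid-linked glycan, lies at chr15:88635673-88649748, and stood at 7.12 FPKM untreated and 19.6 treated, a ratio of 2.76 (95% interval 2.56 to 2.97) and a log2 change of 1.35. The adjusted change was 2.14. Its neighbour Creld2, which encodes an ER-resident protein and starts 328 bases away on the other strand, was at 29.7 and 88.3 FPKM, so both genes of the shared promoter were higher. Alg2, a mannosyltransferase acting early, was at 21.4 and 30.3 FPKM (0.48), and it shares a promoter of 294 bases with Sec61b (0.50). Alg5, the dolichyl-phosphate glucosyltransferase, stood at 33.1 and 16.4 FPKM (-0.97). Dpagt1, which catalyses the first step of the lipid-linked glycan, was at 16.9 and 15.1 FPKM, and Gfpt1, which starts the hexosamine pathway that supplies the sugar, at 20.2 and 18.9 FPKM. These enzymes of the entry into the pathway had log2 changes of only -0.15 and -0.09.

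The 250 bases before the start of Alg12 are shown because they hold the letters of an ER stress response element (ERSE: CCAAT, 9 bases, CCACG, searched on both strands), which XBP1 or ATF6 bind together with NF-Y. They lie at chr15:88649749-88649998 on mm9, read on the minus strand, with both parts of the element in capitals.
Alg12: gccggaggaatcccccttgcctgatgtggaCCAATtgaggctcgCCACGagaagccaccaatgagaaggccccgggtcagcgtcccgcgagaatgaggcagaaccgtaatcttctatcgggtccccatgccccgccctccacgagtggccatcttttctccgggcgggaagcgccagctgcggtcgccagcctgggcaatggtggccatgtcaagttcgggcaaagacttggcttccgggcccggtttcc
The element is centred 211 bases before the Alg12 start, in the stretch between Alg12 and Creld2. In promoters of 300 bases from RefSeq (GRCm38.p6, 250 before to 50 after the start), which were held for 43 of the 54 members, Alg12 was the 1 member with these letters, against 0.176% of 8542 expressed genes and 0.137% of all 27025. The 4 CpG cytosines inside the element were at 0% methylation. A match of letters is a description and shows no binding.

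The coat of COPII vesicles, which bud from the ER, held 5 of the 10 lower members, 45.5% of its genes against 28.2% of all expressed entries. Sar1a and Sar1b encode the GTPase that starts the coat, and stood at 121 and 134 FPKM and at 41.6 and 36.3 FPKM. Sec16a, the scaffold of ER exit sites, was at 15.8 and 14.7 FPKM, so the genes that set up the coat had log2 changes of 0.15, -0.19 and -0.10, close to 0. The 8 genes of the coat proteins had a median of -1.07. Sec23a, an inner coat subunit whose loss causes a craniofacial disorder in humans, was at 45.6 FPKM untreated and 21.3 treated (log2 change -1.06). Sec13 and Sec31a, which form the outer cage, were at 119 and 55.3 FPKM and at 99 and 46.6 FPKM, changes of -1.09 and -1.07. The cage genes thus stood at nearly the same ratio, 0.467 and 0.471. After the adjustment for junction density Sec13 and Sec31a were at -0.05 and 0.02, and the 8 coat protein genes had a median of -0.11.

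Within the SEC24 family, which binds cargo, the paralogues differed. Sec24d, the most abundant, was at 64.5 and 26.9 FPKM (-1.23), Sec24b at 17.5 and 5.88 (-1.42, the lowest of the step by FPKM), and Sec24c at 27.2 and 14.1 (-0.90). For Sec24c the bounds and the FPKM disagreed, and the implied fragments gave -1.69, past the threshold and below the -1.57 they gave for Sec24b. Sec24a was the exception, at 6.0 FPKM untreated and 9.13 treated, a ratio of 1.52 (95% interval 1.46 to 1.59) and the highest change of the step at 0.53. Its share of the summed SEC24 FPKM was 5.21% without and 16.3% with thapsigargin, and that of Sec24d 56% and 48.1%, shares that rest on the FPKM of Sec24c as well. Sec23b, the paralogue of Sec23a, was at 18.6 and 14.0 FPKM, and its share of the SEC23 sum was 29.0% without and 39.7% with thapsigargin. The implied fragments of Sec23b gave a log2 change of -0.72 where its FPKM gave -0.38, so this share is uncertain. The shares of Stt3a and Stt3b (65.4% and 66.6% for Stt3a) and of Sec11a and Sec11c (84.2% and 87.5% for Sec11a) differed little between the libraries.

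**Figure D4:**
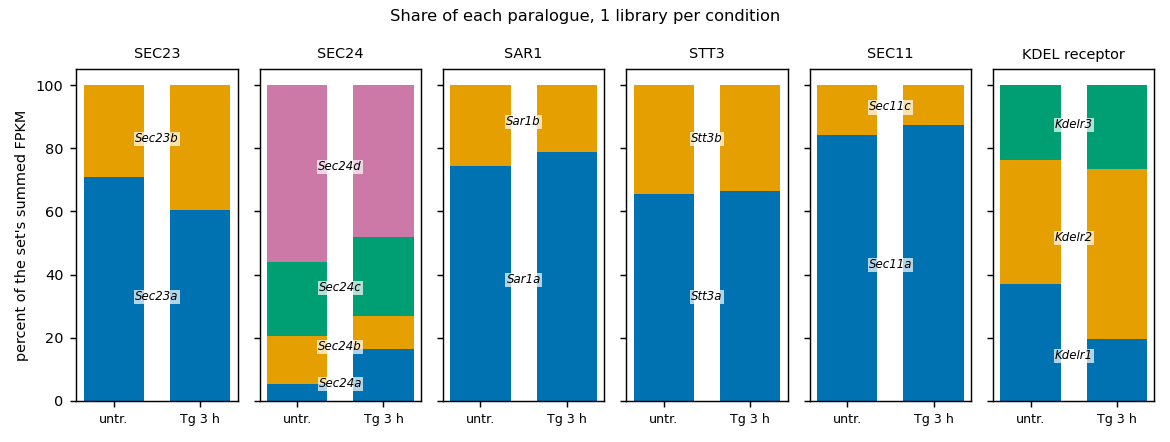
Share of each paralogue in the summed FPKM of its set, in percent, in the untreated (untr.) and the thapsigargin-treated (Tg 3 h) library, 1 library each. Sec24a takes a larger share after treatment, as does Kdelr2, while Kdelr1 takes a smaller one.

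The COPI coat held the member with the lowest change of the set. Cope, encoding the epsilon subunit of coatomer (chr8:72826684-72836889), stood at 135 FPKM untreated and 11.8 treated, a ratio of 0.0877 (95% interval 0.0829 to 0.0928) and a log2 change of -3.40. Among all expressed entries this was at percentile 0.8, and the adjusted change was -2.07 at 7.0 junctions per kb. Ddx49, an RNA helicase gene that starts 333 bases away on the other strand, was at 24.3 and 8.20 FPKM. Copb1 and Copb2, the beta and beta-prime subunits, were at 65.6 and 25.4 FPKM and at 96.6 and 33.3 FPKM, changes of -1.33 and -1.51, but only -0.24 and -0.33 after the adjustment. Copa, the alpha subunit, was at 95.5 and 52.7 FPKM (-0.85 and 0.23 after the adjustment). Before the adjustment 3 of the 4 coatomer genes were thus lower, 75% against 28.2% of all expressed entries, and Copa lay within the threshold. The 4 had a median of -1.42, and Cope alone was past the threshold after the adjustment. Neither regulator passed the threshold. Arf4, a GTPase of the family that recruits coatomer and the most abundant transcript of the step in both libraries, was at 178 and 167 FPKM. Arfgap1, which makes ARF hydrolyse GTP, was at 43.1 and 60.3 FPKM (0.48), but the fragments implied by its bounds gave 0.03.

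Of the cargo receptors none passed the threshold, and the 3 KDEL receptors, which return ER residents carried off to the Golgi, lay on both sides of 0. Kdelr1 was at 123 FPKM untreated and 69.7 treated, a log2 change of -0.82 and the lowest of the step. Kdelr2 was at 131 and 193 FPKM, a ratio of 1.47 (95% interval 1.45 to 1.5). Kdelr3 was at 78.6 and 94.6 FPKM, where the treated value carries a failed status in the authors' table. The sum of the 3, which includes that value, was close, 333 and 357 FPKM, while the share of Kdelr1 went from 37.1% to 19.5% and that of Kdelr2 from 39.3% to 54%. Kdelr1 and Kdelr2 were thus nearly equal in untreated cells, and Kdelr2 was far above Kdelr1 in treated cells.

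Surf4, a receptor for soluble secreted proteins, was the most abundant of the step in both libraries, at 183 and 204 FPKM. Lman1 and Mcfd2 form the receptor for coagulation factors V and VIII, and stood at 70.4 and 47.9 FPKM and at 57.8 and 87.2 FPKM, the latter the highest change of the step at 0.59. For this pair the bounds and the FPKM disagreed, and the implied fragments gave log2 changes of 0.51 for Lman1 and 1.04 for Mcfd2. The direction of Lman1 therefore depends on which deposited value is read. Tmed2 and Tmed10, members of the p24 family of cargo adaptors, were at 145 and 102 FPKM and at 54.8 and 55.5 FPKM, with 92.1% and 33.3% of their windows copied elsewhere.

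A further list of 81 genes of the same pathway, none a member, was read in the same way. It had 78 expressed entries, of which 4 were higher and 20 lower, 5.13% and 25.6% against 6.02% and 28.2% of all expressed entries, with a median log2 change of -0.25 and, after the adjustment, of 0.34. The 3 highest were Gfpt2, the second isoenzyme at the entry of the hexosamine pathway, at 7.45 and 36.5 FPKM, Uap1, which makes UDP-N-acetylglucosamine, at 17.8 and 56.6 FPKM, and Srp9, an SRP protein, at 14.7 and 36.4 FPKM, with 38.5% of its windows copied elsewhere. The isoenzymes thus differed, since Gfpt1 was at 20.2 and 18.9 FPKM. The lowest were Ergic3, a membrane protein of the ER-Golgi intermediate compartment, at 181 and 11.8 FPKM, Scfd1, a regulator of vesicle fusion, at 27.8 and 1.98 FPKM, and Tram2, a homologue of the translocating chain-associated protein, at 11.7 and 0.557 FPKM. Of these, Ergic3 and Scfd1 have over 10 junctions per kb and Tram2 has 1.54.

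By role, the further genes lay on both sides of 0. Of 25 further genes of donor synthesis, 2 were higher and 6 lower, 8% and 24% against 6.02% and 28.2% of all expressed entries. Their median log2 change was -0.23. The lower ones were Alg1 (-2.66) and Alg3 (-1.13), both mannosyltransferases, Alg10b (-1.59), a glucosyltransferase, Dpm1 (-1.85), the catalytic subunit of dolichol-phosphate mannose synthase, and Pmm1 (-1.60) and Gmppa (-1.53), which act in the supply of GDP-mannose. After the adjustment 4 of the 25 were higher and 3 lower, against 12.5% and 10.5% of 11673 entries. Their median was 0.40, and Alg3, Pmm1 and Gmppa lay within the threshold. Of 4 further OST genes none was higher and 2 were lower, 50% against 28.2% of all expressed entries. The lower ones were Krtcap2 (-2.12) and Tusc3 (-1.90), while Magt1 was at 0.23 and Ost4 at 0.36. After the adjustment 1 of the 4 was higher, Magt1 (1.09), and 1 lower, Krtcap2 (-1.22). For Magt1 and Ost4 the bounds and the FPKM disagreed, so the higher call of Magt1 is uncertain. Of 5 further coatomer entries none was higher and 3 were lower, 60% against 28.2% of all expressed entries. The lower ones were Copg (-1.10), Copg2 (-2.26) and Copz2 (-1.34). All 3 have 5 or more junctions per kb, a class in which 48.1% of expressed entries were lower. After the adjustment these 3 were at -0.06, -0.46 and 0.45, and none of the 5 passed the threshold. Arcn1, the delta subunit, was at 74.9 and 55.4 FPKM (-0.43), with 52.5% of its windows copied elsewhere, and Copz1, a zeta subunit, at 74.4 and 106 FPKM (0.51). The coat subunits thus did not share a direction. Of 6 further ARF GTPases and regulators none passed the threshold, from -0.98 at Arf5 to 0.78 at Arfgap2. The value of Arfgap2 is uncertain, since its bounds and its FPKM disagreed. Of its windows 66.7% are copied elsewhere, and exons of another gene overlap 36.2% of its length. Of 7 further entries for SRP and its receptor, 1 was higher (Srp9) and 3 lower, 14.3% and 42.9% against 6.02% and 28.2%. All 3 lower entries were for Srp54a and Srp54b. As many as 49% and 56.2% of the windows of these paralogues are copied elsewhere, and 2 of the 3 entries are listed at 0 in the treated library.

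ATF4 peaks were listed at most of the members. Per gene body widened by 10 kb, 42 of 54 members had an ATF4 peak of treated cells, 77.8%, against 61.8% of 11890 expressed genes. Within 1 kb of the gene start 37 members did, 68.5% against 47.7%. By step these were 9 of 12 in the translocon group, 2 of 5 for signal peptidase, 10 of 12 for N-glycosylation, 7 of 11 for COPII, 3 of 6 for COPI and 6 of 8 cargo receptors. The members are more abundant than expressed genes at large, and whether that goes with the share was not tested. The best-scoring start peaks of the members had a median score of 6.52, against 6.13 for expressed genes with such a peak and 5.41 for the whole list of 10109 peaks. They were of middling height: the highest score at a member's own start was 12.06 at Arf4, rank 590 of the list, followed by 11.43 at Sec31a and 11.21 at Gfpt1. The highest score within 10 kb of any member, 26.09 near Sec24a, lay at the start of 0610009B22Rik, 68063 bases from the Sec24a start.

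Members with and without an ATF4 peak at the start had overlapping changes. The 37 members with one had a median log2 change of -0.09, with 1 higher and 6 lower, 2.7% and 16.2%. Expressed genes with such a peak had a median of -0.46, with 5.29% higher and 25.5% lower. The 17 members without had a median of -0.58, with 0 higher and 4 lower, the latter 23.5%, and expressed genes without had -0.58, with 6.5% and 30.7%. After the adjustment the medians of the members were 0.38 and 0.13. The lowest members were found in both groups: Ssr4 had an ATF4 peak of score 8.63 at its start, 2 peaks lay at the start of Rpn2 with scores of 5.62 and 4.86, and Cope had none within 1 kb. The Alg12 peak, of score 5.94, lay 384 bases before its start and nearest to that of Creld2. The ERSE letters, at chr15:88649950-88649968, were just outside the edge of the peak, which covers chr15:88649984-88650281.

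CEBPB peaks were listed at a smaller share of members than of expressed genes in untreated cells, and at a share near theirs in treated cells. In untreated cells 6 of 54 members had one within 10 kb of the body, 11.1% against 24.1%, and in treated cells 10 did, 18.5% against 22.5%. The members in untreated cells were Stt3b, Ostc, Dpagt1, Arfgap1, Arf4 and Tmed10, and none of their peaks scored above the median of the list. The highest, with a score of 76.0, lay at the start of Dpagt1 and overlapped an ATF4 peak of treated cells. In treated cells the members were Sec63, Srpr, Spcs3, Stt3a, Alg5, Sec23b, Copa, Copb2, Arfgap1 and Mcfd2. Scores of the 2 CEBPB lists are on different scales and were ranked within each list alone. The highest in treated cells, 20.25 at rank 414 of 7861, lay 17518 bases from the Mcfd2 start, beyond the end of that gene. Only Alg5 and Stt3a had a treated CEBPB peak within 1 kb of the start, with scores of 13.27 and 6.37, and the one at Stt3a overlapped an ATF4 peak.

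**Figure D5:**
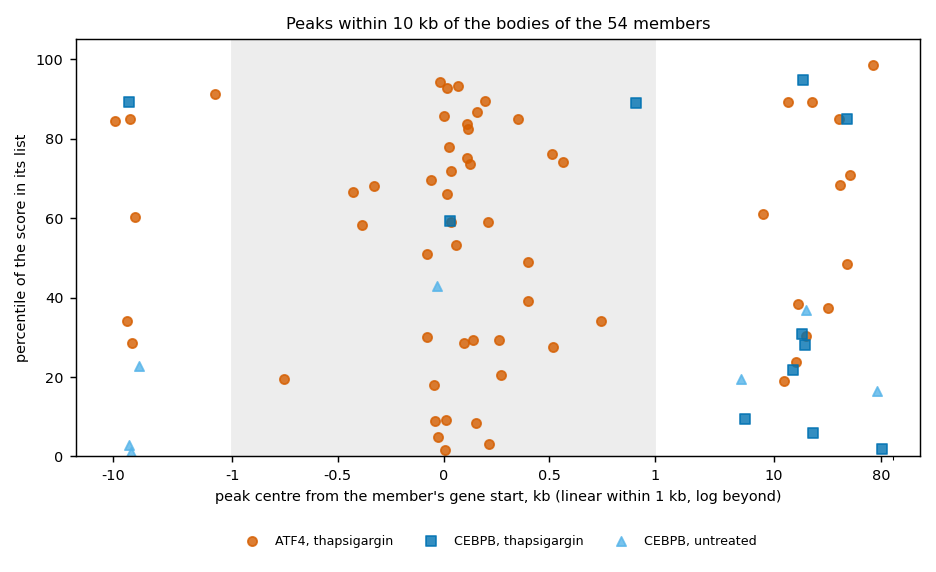
Peaks within 10 kb of the bodies of the 54 members, by the distance of the peak centre from the member's gene start in kb (linear within 1 kb, log beyond) and the percentile of the peak's score in its own list. A peak near a pair of members is drawn once for each. ATF4 peaks cluster within 1 kb of starts over the whole range of scores, and untreated CEBPB peaks lie below the middle of their list.

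Arfgap1 was the single member with a CEBPB peak in both states, at the same place, 7369 and 7419 bases before its start in an intron of Gm14341. The 2 peaks overlapped at chr2:180694403-180694621 and had scores of 51.04 at rank 7105 of 7317 and of 13.48 at rank 846 of 7861. The sequence is shown because it holds both a composite CEBP-ATF site (TGATGCAA) and the UPRE letters (TGACGTGG, an XBP1 or ATF6 site) within the peak. It is chr2:180694492-180694576 on the plus strand of mm9, with both in capitals.
Arfgap1: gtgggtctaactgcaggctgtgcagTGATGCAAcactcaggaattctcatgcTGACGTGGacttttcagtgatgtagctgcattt
The CpG cytosines of the UPRE letters were at 39% methylation there, and no ATF4 peak overlapped.

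The members with the UPRE letters TGACGTGG at their start were coat genes and a KDEL receptor. In RefSeq promoters they were found, on either strand, in 5 of 43 members, Sec23a, Sec24d, Copb1, Copb2 and Kdelr3, against 1.11% of 8542 expressed genes and 0.714% of all 27025 promoters. On mm9, around the starts of the RNA tables, Arf4 was a sixth, against 0.925% of the same expressed genes. The starts are shown because they place the letters relative to the start, from 100 bases before each start on the strand of the gene, with the letters or their reverse complement in capitals. They lie at chr12:60112986-60113104 on the minus strand for Sec23a, chr3:122970314-122970413 on the plus strand for Sec24d, chr7:121398195-121398294 on the minus strand for Copb1, chr9:98464050-98464155 on the plus strand for Copb2, chr14:27457583-27457693 on the plus strand for Arf4 and chr15:79346738-79346837 on the plus strand for Kdelr3, all on mm9.
Sec23a: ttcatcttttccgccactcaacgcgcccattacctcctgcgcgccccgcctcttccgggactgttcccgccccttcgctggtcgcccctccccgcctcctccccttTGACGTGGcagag
Sec24d: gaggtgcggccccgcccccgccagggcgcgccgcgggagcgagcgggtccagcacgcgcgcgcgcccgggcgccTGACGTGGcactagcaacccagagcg
Copb1: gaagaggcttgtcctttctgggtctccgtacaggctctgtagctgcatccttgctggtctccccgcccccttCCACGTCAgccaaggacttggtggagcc
Copb2: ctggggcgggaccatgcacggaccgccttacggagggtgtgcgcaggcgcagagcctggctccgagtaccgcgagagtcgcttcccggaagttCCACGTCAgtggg
Arf4: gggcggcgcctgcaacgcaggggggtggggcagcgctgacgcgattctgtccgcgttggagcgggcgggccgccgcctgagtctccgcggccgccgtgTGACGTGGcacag
Kdelr3: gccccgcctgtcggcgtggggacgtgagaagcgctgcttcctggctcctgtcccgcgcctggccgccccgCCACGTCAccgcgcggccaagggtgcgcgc

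The site is centred 27 bases before the start at Kdelr3, 24 at Copb1, 23 at Sec24d and 4 at Copb2, and 1 and 10 bases after it at Arf4 and Sec23a, so all 6 lie close to the start. Both CpG cytosines of each of the 6 sites were at 0% methylation. The letters were inside an ATF4 peak at Copb1, Arf4 and Kdelr3 and in none at Sec23a, Sec24d and Copb2. The log2 changes of the 6 were -1.33, -0.10, 0.26, -1.06, -1.23 and -1.51 in that order, so 5 lay below 0, as did 72.6% of all expressed entries. The treated value of the exception, Kdelr3, carries the failed status. After the adjustment the changes of the 6 were -0.24, 0.32, 0.56, -0.20, -0.36 and -0.33, none past the threshold. CCACG alone was in 31 of 43 member promoters, 72.1%, against 52.9% of expressed genes, and includes the ERSE and UPRE matches. The cyclic AMP element TGACGTCA was in 1, that of Cope, 225 bases before its start on mm9, against 3.65%. No member promoter held TGATGCAA, against 0.784%, which says only that these letters are not in this window.

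Further matches lay within ATF4 peaks outside those windows and are shown because they place the letters under a peak. The UPRE letters lay 442 bases after the Sec62 start, at chr3:30692226-30692255 on the minus strand, and 224 bases after the Sec24a start, at chr11:51570098-51570127 on the minus strand. The composite letters TGATGCAA lay in the peak 1385 bases before Sec23a, at the start of Sip1, at chr12:60114321-60114350 on the plus strand, all on mm9.
Sec62: ccggttccttcTGACGTGGagcgagtcggg
Sec24a: gcgggagtccgTGACGTGGcaggcgagtcc
Sec23a peak: tgccataagctTGATGCAAccagcaggttt
In the central 200 bases of the peaks, 4 of the 57 ATF4 peaks near members held the UPRE letters, 7.02% against 0.614% of the list. Those peaks had scores from 2.80 at Copb1 to 12.06 at Arf4.

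The starts of the members were nearly free of CpG methylation in untreated cells. Over 500 bases on each side of the start the median was 0.121% for the 54 members, 0.768% for 11851 expressed genes and 57.1% for 8852 genes under 1 FPKM in both libraries, with no coverage given behind any value. Of the members, 51 were under 5%. The exceptions were Ssr4 at 23.2%, Sec24a at 10.5% and Sec13 at 6.68%. The value of Ssr4 was close to the median of X-linked expressed genes in these female cells, 23.9%, while autosomal ones had 0.684%. Sec24a and Sec13 are autosomal and stood at 9.13 and 55.3 FPKM after treatment, on either side of 0 in their change. Within 1 kb on each side the member median was 3.45% against 5.49% for expressed genes. Methylation was not measured in treated cells.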

How the data were processed

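The members, steps, roles, gene and marker lists and motifs were chosen with earlier results of these data known. Per the submitters' processing notes, RNA reads went through CASAVA 1.8.2 and Bowtie, immunoprecipitation reads through CASAVA 1.7, BWA and SAMtools, and bisulfite reads through CASAVA 1.8 and Novoalign, on mm9; the sources used here do not give the program behind the FPKM, the caller of the ATF4 peaks, the thresholds or the controls. The authors deposited FPKM per gene with confidence bounds and a status, a score per peak for each library, and a percent of methylation per CpG cytosine pooled over both bisulfite libraries, without coverage. Peak names in both CEBPB lists begin with MACS.

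Change was the difference of log2(FPKM + 1) for entries at 1 FPKM or more in either library, with no test. Fragments were read from the deposited bounds, taken as 2 standard errors of counting, and gave exact Clopper-Pearson intervals of ratios at 95% for the 46 members whose fragments per FPKM were within 5% of the median of all genes. Of the entries with 3 to 200 fragments, 73.7% and 79.3% came out whole within 0.05, so counts were not recovered and no count test was run. Junction density came from GENCODE vM1, over 50 bins holding the genes that reached 5 FPKM. Copies were sought with minimap2 2.31-r1302 in windows of 100 bases taken every 50, with at most 3 mismatches. Peaks were assigned by an overlap of 1 base or more with the widened body or start, against 11890 expressed genes listed once. Promoters were held for 43 members by symbol; Sec61a1, Ssr2, Srp68, Spcs3, Sec11c, Ostc, Alg2, Dpagt1, Kdelr2, Lman1 and Tmed2 had none. Values were printed for every member past the threshold, for the extremes and the most abundant member of each step, for paralogues and for members with a CEBPB peak; most others are named too. The scripts were tested on simulated data. Alternatives were the pseudocount, centring, the adjustment, copies, the threshold, the filter, peak distance and score, and the window of methylation.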

Additional observations from a re-analysis of the deposited data

How the results depend on the processing

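No paired analysis was possible because each RNA and each immunoprecipitation group had 1 library. Relative to the median of all expressed entries, which lay at -0.52, 8 members were higher and 3 lower, with medians of 0.34 for the set, 0.54 for the translocon group, -0.0079 for signal peptidase, 0.16 for N-glycosylation, -0.38 for COPII, -0.57 for COPI and 0.61 for cargo receptors. Set against genes of like junction density, 8 were higher and 3 lower, with medians of 0.23, 0.69, 0.19, 0.14, 0.024, -0.0061 and 0.40 in that order, and Sec31a moved from -1.07 to 0.024. The higher members were not all the same, since Alg2 and Kdelr2 passed only in the former and Srp68 and Arfgap1 only in the latter. The lower genes Ssr4, Rpn2 and Cope and the higher Alg12 kept their side of the threshold under each scaling. A pseudocount of 5 gave a COPII median of -0.75. Members with few copies gave -0.75 for signal peptidase and 0.21 for cargo receptors. Fragments implied by the bounds, an alternative chosen after seeing the data, gave 2 higher members, Alg12 and Mcfd2, and 13 lower ones, adding Ddost, Alg5 and Sec24c, and a COPII median of -1.09. A threshold of 1.5-fold gave 3 higher and 18 lower, and no filter on low values gave the same counts as the filter. The share of all expressed entries past the threshold was 12.5% higher and 10.5% lower after the junction adjustment. It was not counted for the centred scale, the implied fragments or the 1.5-fold threshold, so those counts of members have no background. CEBPB peaks of untreated cells were found at 1 member within 1 kb of the start, at 18 within 50 kb of the body and at 0 with a score above the list's median. These are 1.85%, 33.3% and 0%, against 4.9%, 44.1% and 14.5% of expressed genes. CEBPB peaks of treated cells were at 4 within 10 kb of the start, 2 within 1 kb, 21 within 50 kb and 4 above the median score. These are 7.41%, 3.7%, 38.9% and 7.41%, against 10.4%, 3.9%, 43.5% and 13.7%. ATF4 start peaks above the median score were at 23 members, 42.6% against 29.3%. Methylation within 1 kb of starts had a median of 3.45%. The cause of these differences was not tested. Over all alternatives, 137 single-gene or promoter motif values and 41 summary values stayed within 0.1 on the log2 scale or 1.5 times a count. Further shifts were seen in 132 single-gene and 34 summary values, and 1 gene past the threshold, Sec31a, changed sign. Centring takes the same amount, more than 0.1, off every gene, so each gene counts as shifted there. Having 1 library per condition limits every difference, whatever its depth.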

Other observations

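Several members share a promoter with a gene on the other strand. There were 7 such pairs with an expressed partner, the starts lying 131 to 333 bases apart. In 6 of them both genes lay on the same side of 0. Besides the pairs described for Alg12, Alg2, Ssr4 and Cope, these were Alg5 with Exosc8, an exosome subunit gene at 15.4 and 2.52 FPKM (log2 change -2.22), and Dad1 with Abhd4, a lipase gene at 45.7 and 19.5 FPKM (-1.19). The exception was Srpr, at 0.52, whose partner Foxred1, an assembly factor gene of mitochondrial complex I, was at 7.90 and 7.62 FPKM (-0.05). After the adjustment for junction density 6 pairs again lay on the same side, but not the same 6: Srpr and Foxred1 were then at 1.21 and 0.66, and Alg5 and Exosc8, which has 11.1 junctions per kb, at 0.15 and -0.42. Of single expressed entries, 72.6% were below 0 before the adjustment and 48.8% after it. The share of such pairs on the same side over all genes was not counted, and no difference between pairs and other genes was tested.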
